A study of Mus musculus with 36 samples.

Results

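Of the 24421 genes counted in every liver, 9 genes of glycogen metabolism were examined: Ppp1r3b, Ppp1r3c, Ppp1r3d and Ppp1r3g, Gys2, Ugp2 and Gbe1, and Pygl and Phka2. They were chosen by symbol, with results of the same 36 livers already known, so that their differences between groups are given as a description and carry no p-value. All mice were male C57BL/6J, 7 weeks old at purchase, and had eaten CDAHFD, a fat-rich diet without choline and with defined amino acids that gives steatohepatitis with fibrosis, for 12 weeks. In one experiment the mice then ate a high-fat diet, HFD, during 2 weeks with a weekly injection of Fc at 4.3 mg/kg (n = 10) or Fc(mML1)B3 at 5 mg/kg (n = 10). In the other they were moved to a standard diet for 10 days and injected on 3 days, the last being day 7, at the same doses, 9 mice with Fc and 7 with Fc(mML1)B3. Fc is the crystallizable fragment of human IgG1. Fc(mML1)B3 is the same fragment with a macrocyclic peptide that binds the mouse Met receptor grafted into one of its loops, and it acts as a mimetic of hepatocyte growth factor. The question addressed was whether livers exposed to this Met agonist differed from Fc livers in the transcripts that store and release glycogen. Diet, schedule and experiment changed together, so that they cannot be told apart in any comparison of the standard diet with the HFD.

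Glycogen is built in the hepatocyte from UDP-glucose, which Ugp2 makes, by glycogen synthase (Gys2 is the liver form), with branches added by Gbe1. It is taken apart by liver glycogen phosphorylase (Pygl), which phosphorylase kinase switches on, and Phka2 is the liver form of that kinase's regulatory alpha subunit. The Ppp1r3 proteins carry protein phosphatase 1 to the glycogen particle, where it activates the synthase and inactivates the phosphorylase. Ppp1r3b (GL) is the classical hepatic subunit, Ppp1r3c (PTG) is found in several tissues, Ppp1r3d (R6) is broadly expressed, and Ppp1r3g is known from liver for its regulation by feeding.

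The libraries held 14949035 to 28466853 reads assigned to genes, each read of a pair being counted. Values are given as CPM, a count relative to the size of the library after scaling by the trimmed mean of M values (TMM), and as RPKM, the same divided by exonic length in kilobases, where genes are compared with each other. The 7 hepatocyte markers summed to between 81700 and 157000 CPM in every liver. Their median sum was 113000 CPM in HFD Fc and 129000 CPM in HFD Fc(mML1)B3 mice (87500 to 147000 and 81700 to 157000). It was 131000 CPM in either group of the standard diet. The 5 skeletal muscle markers, whose tissue also stores glycogen, summed to at most 1.95 CPM and Myh4 was at 0 in all 36 livers. The 4 adipocyte markers summed to 5.88 to 30.3 CPM, with Lep at 0 in all 36. Between HFD Fc and HFD Fc(mML1)B3 mice the median sum was 547 and 286 CPM for cholangiocyte markers (153 to 819 and 148 to 795), 915 and 751 CPM for stellate cell and fibroblast markers (644 to 1230 and 632 to 1360), 871 and 719 CPM for macrophage markers (632 to 1150 and 566 to 1150) and 145 and 149 CPM for endothelial markers. On the standard diet the medians of the first 3 lists were 300 and 322, 586 and 579, and 744 and 636 CPM, and the part of these cells in the differences of the glycogen genes was not tested. As these are whole livers, fewer cells of a type and less RNA per cell cannot be told apart.

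On the per-length scale, Pygl and Ugp2 had the highest group means of the 9 in every group and Ppp1r3d the lowest. In Fc mice under the HFD the level was 144 ± 38.7 RPKM for Pygl, 133.9 ± 28.6 for Ugp2, 112 ± 30.5 for Gys2 and 63 ± 20.2 for Gbe1 (SD, n = 10). The top of this order was not separated between mice, since Pygl exceeded Ugp2 in 7 of 10 livers and Ugp2 exceeded Gys2 in 8 of 10. Ppp1r3b followed at 38.3 ± 18.9 RPKM, above Ppp1r3c at 7.51 ± 3.22, Phka2 at 5.49 ± 0.924, Ppp1r3g at 1.17 ± 0.467 and Ppp1r3d at 0.286 ± 0.128 RPKM. In Fc(mML1)B3 mice Ppp1r3b moved up one place, past Gbe1, in both diets: its level was 92.8 ± 19.6 RPKM under the HFD, where it lay below Gys2 in 5 of 10 livers, and 98.8 ± 50.8 RPKM under the standard diet. All 9 genes passed the filter on low counts in every comparison.

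Under the HFD, 3 of the 9 genes were called higher in Fc(mML1)B3 than in Fc livers (Ppp1r3b, Ppp1r3c and Pygl) and 2 lower (Ppp1r3g and Phka2), where a call is an adjusted p below 0.05 by edgeR's quasi-likelihood test over all genes. Among all 13299 genes tested there, 8.14% were called higher and 6.68% lower. After the standard diet 3 were called higher (Ppp1r3b, Gys2 and Gbe1) and 1 lower (Ppp1r3c), beside 8.56% and 7.55% of 13570 genes. Nothing is read from these counts, since the genes were chosen on the same comparisons. The share of calls that were higher under the HFD, 54.9%, became 44.6% with upper-quartile scaling, so that the balance of directions over all genes depended on the scaling, while none of the 9 changed its call there.

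**Figure D1:**
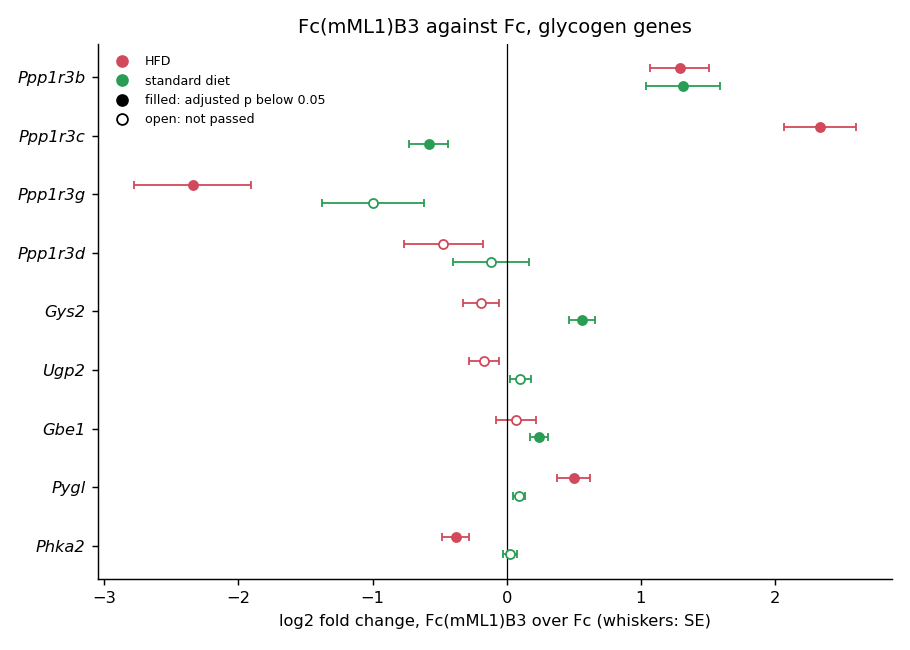
Log2 fold change of Fc(mML1)B3 over Fc (x axis, whiskers SE) for the 9 glycogen genes (y axis) for the HFD (red) and the standard diet (green), filled where the gene was called. Ppp1r3b lies near 1.3 in both diets, and Ppp1r3c at 2.34 for the HFD and -0.58 for the standard diet.

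Ppp1r3b, at chr8:35375741-35388137 on the plus strand of mm10, was the subunit that was higher with Fc(mML1)B3 in both diets. Under the HFD the lowest, median and highest Fc mice held 63.6, 153 and 325 CPM, and the Fc(mML1)B3 mice 299, 358 and 527 CPM. Of the 10 Fc(mML1)B3 livers, 8 stood above the highest Fc liver, and all 10 above the Fc median, with a log2 fold change of 1.29 ± 0.22 (SE). On the standard diet the Fc mice held 113, 170 and 282 CPM and the Fc(mML1)B3 mice 114, 381 and 650 CPM, a log2 fold change of 1.32 ± 0.28, a call lost with the replicate number as a block (1.13 ± 0.362). The Fc(mML1)B3 group was wide there: 5 of 7 livers lay above every Fc liver, while the lowest, at 114 CPM, was among the lowest Fc values. The Fc groups held 161 ± 79.8 CPM under the HFD (n = 10) and 167 ± 51.6 CPM under the standard diet (n = 9), and the difference between the effects in the 2 diets was 0.04 ± 0.37 on the log2 scale.

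Ppp1r3c, at chr19:36731731-36736604 on the minus strand, differed in opposite directions in the 2 diets. Under the HFD the Fc mice held 12.1, 16.8 and 41.6 CPM (lowest, median, highest) and the Fc(mML1)B3 mice 33.9, 106 and 165 CPM. There 8 Fc(mML1)B3 livers were above the highest Fc liver and the groups met only because 1 Fc mouse, at 41.6 CPM, lay above 2 Fc(mML1)B3 mice at 33.9 and 39.7 CPM. The means of 20.1 ± 8.61 and 101 ± 47 CPM gave a log2 fold change of 2.34 ± 0.27, or 5.05-fold. The order was turned round after the standard diet, with 32.1, 46.5 and 77.5 CPM in Fc mice and 24.4, 33.1 and 43.9 CPM in Fc(mML1)B3 mice. All 7 Fc(mML1)B3 livers lay below the Fc median and 3 below the lowest Fc liver, for a log2 fold change of -0.58 ± 0.14. The standard diet Fc mice fell into 2 runs of sample numbers in the file names, mice 1 to 5 and mice 6 to 9, whose origin is not given, and all 7 Fc(mML1)B3 mice carried the run of mice 6 to 9. The Ppp1r3c call was lost when the Fc group was limited to mice 6 to 9 (-0.48 ± 0.16) and in 1 fit over all 36 libraries, with log2 fold changes between -0.67 and -0.47 over the alternatives tried. Within that run Ppp1r3b and Gys2 were still called, at 1.5 ± 0.39 and 0.43 ± 0.08. The effects on Ppp1r3c in the 2 diets differed by -2.90 ± 0.35 on the log2 scale.

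Ppp1r3g, at chr13:35967906-35970388 on the plus strand, was rare and was lower with Fc(mML1)B3. Under the HFD the Fc mice held 0.87, 2.6 and 4.25 CPM (lowest, median, highest) and the Fc(mML1)B3 mice 0, 0.402 and 1.83 CPM. In all, 8 of 10 Fc(mML1)B3 livers were below the lowest Fc liver, and 2 had no read, which allows up to 0.405 and 0.445 CPM at their depth (3 read pairs or 6 reads, counting error only). The log2 fold change was -2.34 ± 0.44, and it rests on 108 reads summed over the 10 Fc(mML1)B3 livers against 565 in the 10 Fc livers. Each read of a pair is counted in these sums, so that the read pairs are fewer. With the standard diet the Fc mice held 0.25, 2.62 and 3.95 CPM and the Fc(mML1)B3 mice 0.477, 1.2 and 2.47 CPM. The difference of -0.996 ± 0.383 on the log2 scale did not pass there, although all 7 Fc(mML1)B3 livers were below the Fc median, and the difference between the diets, 1.36 ± 0.60, did not pass either. It was called under the standard diet without Fc mouse 1 (-1.16) or without Fc(mML1)B3 mouse 3 (-1.26) and with Fc mice 6 to 9 alone (-1.33), and between the diets without HFD Fc(mML1)B3 mouse 2 (1.86).

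Ppp1r3d, at chr2:178411206-178414463 on the minus strand, was near the limit of detection, with 4 to 28 reads in a liver, each read of a pair being counted. Its mean was 0.933 ± 0.418 CPM in Fc and 0.662 ± 0.302 CPM in Fc(mML1)B3 mice under the HFD, and 0.659 ± 0.22 and 0.607 ± 0.277 CPM under the standard diet. The log2 differences of -0.47 ± 0.29 and -0.12 ± 0.28 did not pass.

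**Figure D2:**
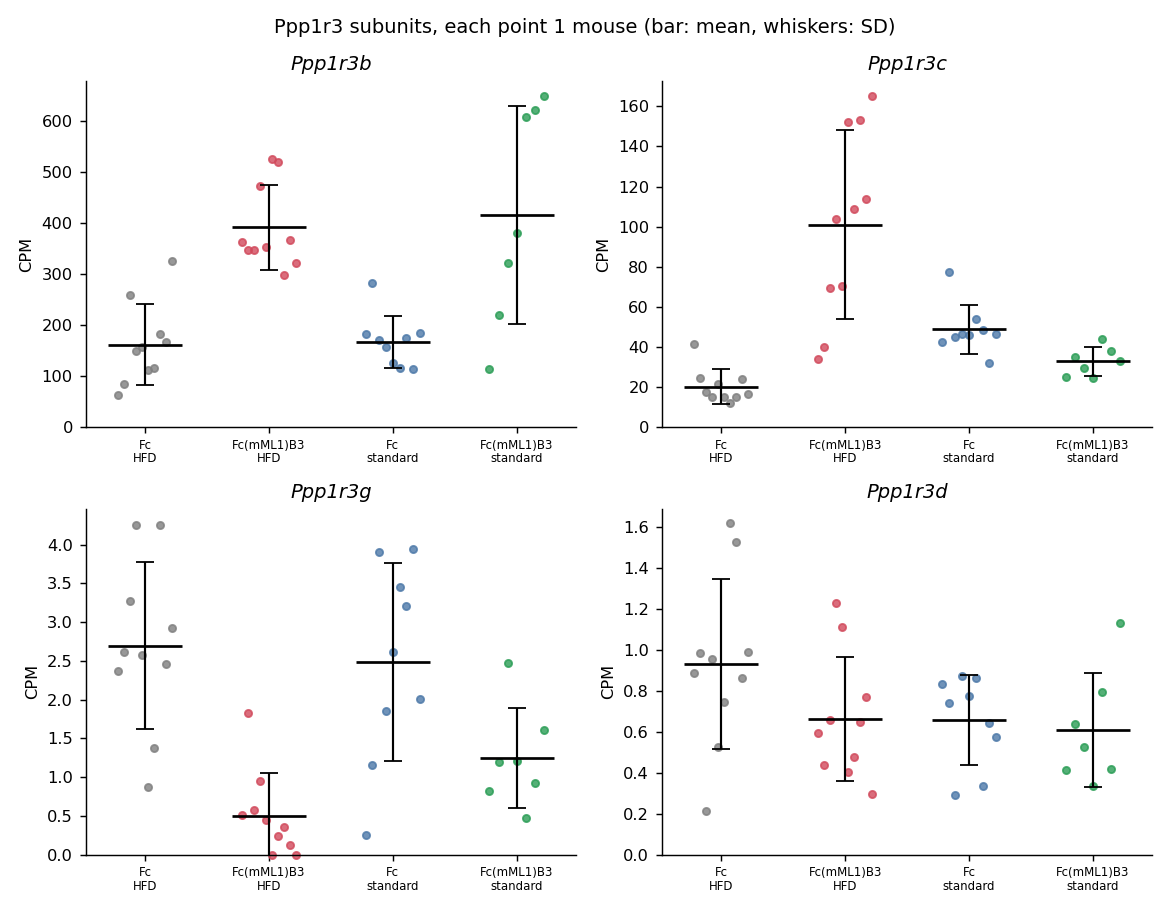
CPM (y axis, linear from 0) of the 4 Ppp1r3 subunits in each mouse (points) of the 4 groups (x axis), with the group mean (bar) and SD (whiskers, cut at 0). Ppp1r3b is high in both Fc(mML1)B3 groups, with 1 standard diet mouse at 114 CPM, and Ppp1r3c is high in HFD Fc(mML1)B3 mice, 33.9 to 165 CPM.

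The 6 subunits Ppp1r3b to Ppp1r3g were summed per length. The sum was 49 ± 18.1 RPKM in Fc and 132.8 ± 28.8 RPKM in Fc(mML1)B3 mice under the HFD. The 2 ranges, 31.8 to 87.3 and 99.2 to 185 RPKM, did not overlap. Nothing further is read from this separation. Most of the sum came from Ppp1r3b and Ppp1r3c, both already seen to be higher in these Fc(mML1)B3 livers. The sums after the standard diet were 61.1 ± 15.7 and 114 ± 52.5 RPKM and the ranges overlapped. Ppp1r3b supplied most of the sum in each group, 75.4 ± 12.9% and 70.7 ± 10.4% under the HFD and 64.2 ± 5.3% and 83.7 ± 8.47% under the standard diet (Fc first). Ppp1r3c supplied 17.7 ± 11.7% and 27.6 ± 10.6% under the HFD, and 30.1 ± 4.15% and 12.8 ± 6.09% under the standard diet. The mixture of subunits lay further towards Ppp1r3b with Fc(mML1)B3 under the standard diet, whereas under the HFD both subunits were higher. The ranges of the shares overlapped between the groups for Ppp1r3b in both diets and for Ppp1r3c under the HFD. The Ppp1r3c shares after the standard diet did not overlap, at 25.9 to 38.9% in Fc and 7.29 to 23.3% in Fc(mML1)B3 mice. Those shares mainly set Ppp1r3c against Ppp1r3b, genes already called there in opposite directions. Nothing further is read from that gap either.

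The sequence before the start of Ppp1r3c and of Ppp1r3g is shown because these subunits differed most between the groups and in opposite directions under the HFD. The windows are the 250 bases before the annotated start, from RefSeq on GRCm38.p6 (the mm10 assembly), chr19:36736605-36736854 on the minus strand and chr13:35967656-35967905 on the plus strand, with matches to 4 searched motifs in capitals.
Ppp1r3c: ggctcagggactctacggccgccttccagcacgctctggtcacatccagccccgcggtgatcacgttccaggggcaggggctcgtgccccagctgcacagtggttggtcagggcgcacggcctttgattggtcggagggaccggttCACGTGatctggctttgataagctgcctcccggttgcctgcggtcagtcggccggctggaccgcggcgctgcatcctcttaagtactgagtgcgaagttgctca
Ppp1r3g: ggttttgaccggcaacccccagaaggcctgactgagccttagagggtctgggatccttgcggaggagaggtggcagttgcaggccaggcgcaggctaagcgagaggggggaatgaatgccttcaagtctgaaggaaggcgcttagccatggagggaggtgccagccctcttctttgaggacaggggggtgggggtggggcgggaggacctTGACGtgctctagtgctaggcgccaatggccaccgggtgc
Both strands were searched for CACGTG (the E-box bound by Clock and Arntl), TTANGTAA (the D-box bound by Dbp and Nfil3), TAGGTCA (a core shared by Ror and Nr1d1 sites) and TGACG (a core of the cAMP response element). The capitals in Ppp1r3c mark CACGTG, whose first base lies at -104 from the start, and those in Ppp1r3g mark TGACG at -40. Of all 32851 windows of this length in the table, 6.02% held CACGTG, 2.06% TTANGTAA, 2.23% TAGGTCA and 17.8% TGACG. Promoters were found for 7 of the 9 genes, and the only other CACGTG was in that of Ppp1r3d, at -226, where its last bases overlap a TGACG. A second TGACG of Ppp1r3d and the one of Pygl were on the opposite strand, as CGTCA at -68 and -44. Ugp2, Gbe1 and Phka2 held none of the 4. A match describes the letters and shows no binding.

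Of the synthesis enzymes, Gys2, at chr6:142422613-142473109 on the minus strand, separated the groups under the standard diet. There the Fc mice held 152, 241 and 255 CPM (lowest, median, highest) and the Fc(mML1)B3 mice 257, 341 and 372 CPM. The groups did not overlap, which held for 2.93% of the genes tested in that diet, and the log2 fold change was 0.56 ± 0.10. Under the HFD the Fc mice held 181, 294 and 476 CPM and the Fc(mML1)B3 mice 186, 260 and 315 CPM, and the difference of -0.19 ± 0.13 did not pass. None of the 9 genes had groups without overlap under the HFD, against 0.917% of all genes tested. The effects on Gys2 in the 2 diets differed by 0.77 ± 0.18 on the log2 scale, and this difference was called.

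Ugp2, at chr11:21321126-21371267 on the minus strand, held 285 to 561 CPM in HFD Fc mice and 286 to 466.3 CPM in HFD Fc(mML1)B3 mice. After the standard diet it held 334 to 528 and 411 to 487 CPM, and neither difference, -0.17 ± 0.11 and 0.10 ± 0.08, passed. Ugp2 shares 32 exonic bases with Vps54. Gbe1, the branching enzyme, at chr16:70313949-70569720 on the plus strand, was spread widely in HFD Fc mice, at 87.2, 171 and 282 CPM (lowest, median, highest), beside 151, 199 and 228 CPM in Fc(mML1)B3 mice. Its difference under the HFD was 0.07 ± 0.15. On the standard diet Fc mice held 124, 146 and 165 CPM and Fc(mML1)B3 mice 149, 173 and 192 CPM, a log2 fold change of 0.24 ± 0.07 with all 7 above the Fc median. The Gbe1 call under the standard diet was lost with Fc mice 6 to 9 alone (0.16 ± 0.07) and in 1 fit over all 36 libraries.

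The breakdown genes were called with the HFD and not with the standard diet. Pygl, at chr12:70190815-70227683 on the minus strand, held 235, 373 and 578 CPM in HFD Fc mice and 476, 576 and 636 CPM in HFD Fc(mML1)B3 mice. All 10 Fc(mML1)B3 livers were above the Fc median and 5 above the highest Fc liver, for a log2 fold change of 0.50 ± 0.12. On the standard diet its levels were narrow, 502 to 557 CPM in Fc and 492 to 614 CPM in Fc(mML1)B3 mice, and the difference of 0.09 ± 0.04 did not pass. Phka2, at chrX:160502166-160598878 on the plus strand, held 19.8, 30.8 and 34.5 CPM in HFD Fc mice and 16.9, 21.8 and 28.7 CPM in HFD Fc(mML1)B3 mice. Its log2 fold change was -0.38 ± 0.10 and all 10 Fc(mML1)B3 livers lay below the Fc median. The means after the standard diet were 31.5 ± 2.16 and 32.2 ± 1.62 CPM and the difference was 0.03 ± 0.05. Both HFD calls were lost when only Fc(mML1)B3 mice 1 to 4 were kept, with log2 fold changes of 0.46 ± 0.18 for Pygl and -0.21 ± 0.13 for Phka2. The difference between the diets was called for Phka2 (0.42 ± 0.12) and not for Pygl (-0.39 ± 0.15). Pygl was called for that difference without HFD Fc mouse 5 or mouse 10 (-0.46 in either), and under the standard diet without Fc(mML1)B3 mouse 3 (0.12).

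**Figure D3:**
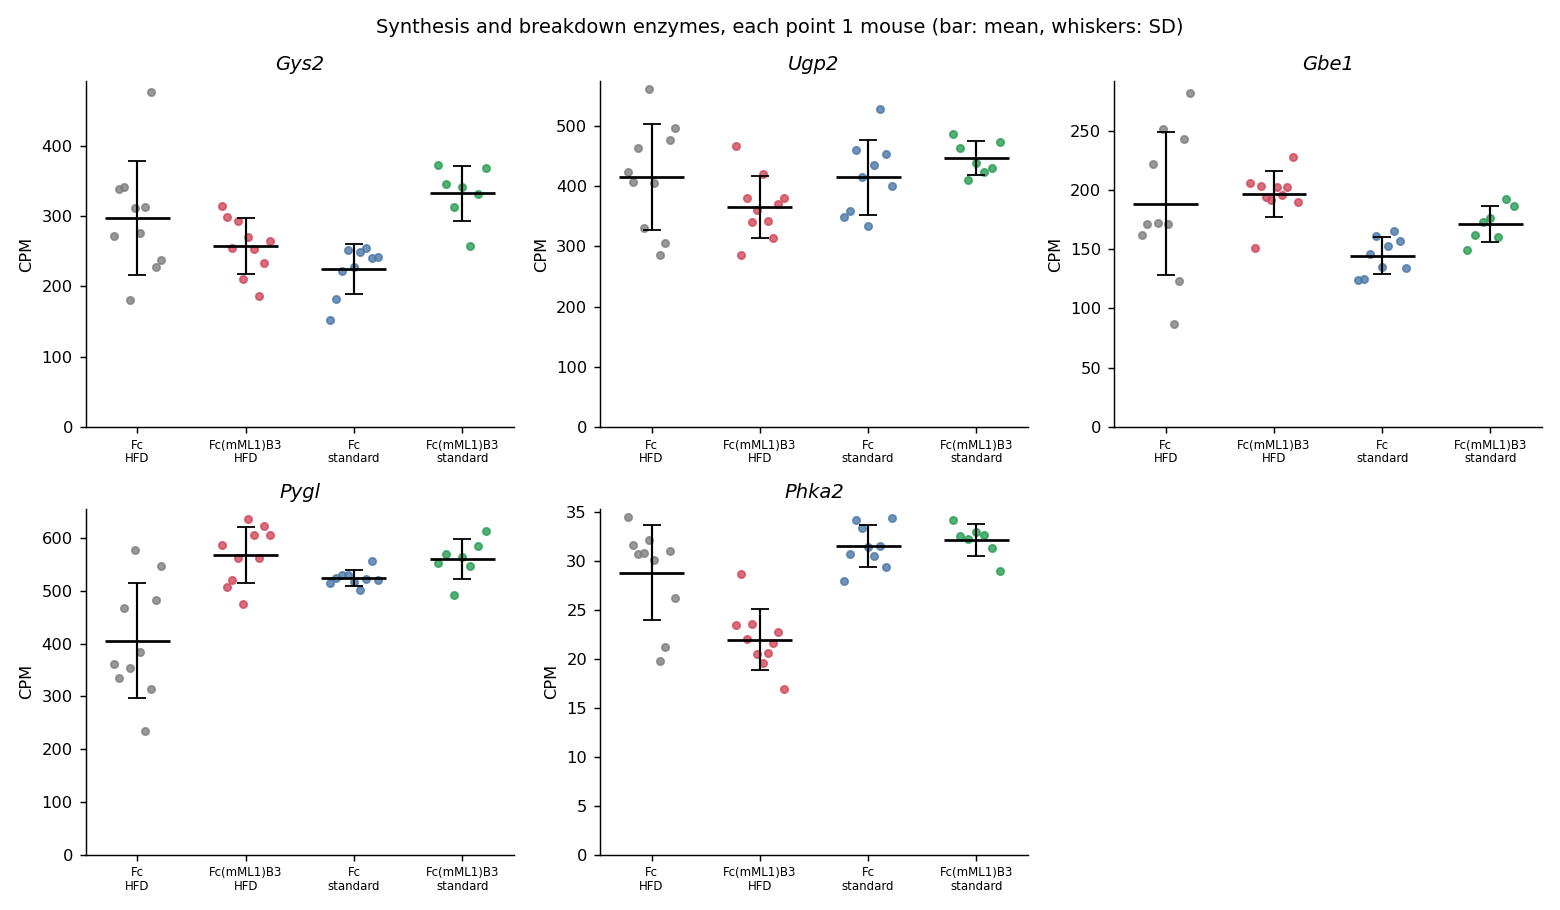
CPM (y axis, linear from 0) of Gys2, Ugp2, Gbe1, Pygl and Phka2 in each mouse (points) of the 4 groups (x axis), with the group mean (bar) and SD (whiskers). Gys2 under the standard diet is 152 to 255 CPM in Fc mice and 257 to 372 CPM in Fc(mML1)B3 mice, without overlap.

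The balance of synthase to phosphorylase transcripts, taken as the log2 ratio of Gys2 to Pygl per length in each liver, is given as a description with no test. Under the HFD it was -0.36 ± 0.62 in Fc mice (range -1.11 to 0.68) and -1.07 ± 0.25 in Fc(mML1)B3 mice (range -1.51 to -0.68). With the standard diet it was -1.15 ± 0.25 in Fc mice (range -1.67 to -0.92) and -0.67 ± 0.16 in Fc(mML1)B3 mice (range -1.004 to -0.49). The ranges overlapped in both diets, and the Fc mice under the HFD were the most variable.

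The same fits gave the difference between the standard diet and the HFD for mice given the same protein. In Fc mice 2 of the 9 genes were called higher under the standard diet (Ppp1r3c and Pygl) and 2 lower (Gys2 and Gbe1), beside 23.3% and 24.6% of the 14105 genes tested. The log2 differences were 1.27 ± 0.23 for Ppp1r3c, 0.37 ± 0.10 for Pygl, -0.40 ± 0.12 for Gys2 and -0.38 ± 0.13 for Gbe1. In Fc(mML1)B3 mice 4 were called higher (Ppp1r3g, Gys2, Ugp2 and Phka2) and 1 lower (Ppp1r3c), beside 20.7% and 17.9%. Ppp1r3c was lower there by -1.63 ± 0.26, and Ppp1r3g, Gys2, Ugp2 and Phka2 differed by 1.24 ± 0.47, 0.37 ± 0.13, 0.29 ± 0.11 and 0.55 ± 0.09. With upper-quartile scaling the calls of Gys2 and Ugp2 were lost, and the share of all calls that were higher fell from 48.6% to 34.5% in Fc mice and from 53.6% to 36.8% in Fc(mML1)B3 mice. Of these calls in Fc(mML1)B3 mice, that of Ppp1r3g was lost without HFD mouse 7, 8, 9 or 10 or standard diet mouse 3 or 7 (0.99 to 1.18) and when the 2 groups were fitted alone (1.23), where Gbe1 became called (-0.22), that of Gys2 without standard diet mouse 1 or 7 (0.33 in either) and with the replicate block, and that of Ugp2 without HFD mouse 2, 4, 5 or 8 or standard diet mouse 1, 2 or 7 (0.24 to 0.28). Ppp1r3b was not called between the diets, at 0.05 ± 0.25 in Fc and 0.09 ± 0.27 in Fc(mML1)B3 mice. For the difference of the Fc(mML1)B3 effect between the diets, 2 were called higher under the standard diet (Gys2 and Phka2) and 1 lower (Ppp1r3c), where 4.66% and 4.4% of all genes were called.

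Of 25 further glycogen genes in 4 lists, 22 were tested under the HFD, of which 0 were called higher and 2 lower, and 23 under the standard diet, of which 2 were called higher and 2 lower. Over all genes 8.14% and 6.68% were called higher and lower in the first and 8.56% and 7.55% in the second. At an unadjusted p below 0.05, edgeR had 1 of the 22 higher and 4 lower under the HFD, and DESeq2 called 0 higher and 3 lower there, and 3 higher and 2 lower on the standard diet. Their median log2 fold change was -0.09 with the HFD and -0.04 with the standard diet, beside -0.01 over all genes in either diet. Stbd1, which tethers glycogen to membranes for its delivery to lysosomes, was the one called in both diets. It held 107 ± 10.4 CPM in Fc and 71.5 ± 10.3 CPM in Fc(mML1)B3 mice under the HFD, without overlap, with a log2 fold change of -0.57 ± 0.08 and an adjusted p of 5.29e-05 by edgeR. On the standard diet it held 123 ± 7.92 and 98.9 ± 5.59 CPM, with -0.31 ± 0.05 and an edgeR adjusted p of 0.000107. At these sizes neither change reached the study's 2-fold and 1.5-fold thresholds, and the calls held under the other alternatives tried.

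Gyg, the glycogenin that primes the particle, was lower under the HFD by -0.39 ± 0.11 (edgeR adjusted p = 0.0175), a call lost with the replicate number as a block and with either set of Fc(mML1)B3 mice alone, although the log2 fold change stayed between -0.46 and -0.33 over the alternatives. On the standard diet Pgm2, phosphoglucomutase, was higher by 0.17 ± 0.05 (edgeR adjusted p = 0.0206), Ppp1cc, a catalytic subunit of protein phosphatase 1, by 0.17 ± 0.05 (0.0213), and Calm3, which encodes the delta subunit of phosphorylase kinase, was lower by -0.17 ± 0.04 (0.00488). These 3 calls were lost with Fc mice 6 to 9 alone and in 1 fit over all 36 libraries, that of Pgm2 also with the replicate block and without Fc(mML1)B3 mouse 6 or 7 (edgeR adjusted p = 0.0519 and 0.0515) and that of Ppp1cc without mouse 7 (0.0526). Pgm2 in the files lies at chr4:99929451-99987294, the gene that RefSeq names Pgm1. The remaining subunits of phosphorylase kinase that were tested (Phka1, Phkb and Phkg2), the catalytic subunits Ppp1ca and Ppp1cb, the inhibitor Ppp1r2, the subunits Ppp1r3e and Ppp1r3f, the kinases Gsk3a and Gsk3b, the enzymes Gys1, Pgm1, Pygb, Pygm and Gaa, the laforin and malin genes Epm2a and Nhlrc1, and Calm2 were not called in either diet by edgeR in the fit of that diet. Pygb, the brain phosphorylase, at -0.63 ± 0.23 under the HFD (edgeR adjusted p = 0.0658), was called without Fc mouse 3 or 5 or Fc(mML1)B3 mouse 5 (0.0434, 0.0404 and 0.0317), by DESeq2 and in 1 fit over all 36 libraries, and Ppp1r2, at 0.15 ± 0.05 on the standard diet (0.0525), without Fc mouse 3 or Fc(mML1)B3 mouse 2 (0.0451 in either), by DESeq2 and with the replicate block. Calm2, at -0.15 ± 0.06 under the HFD, was called in the fit over all libraries. Phkg1 and Ppp1r3a were too low to be tested in either diet, and Ppp1r3f under the HFD.

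**Figure D4:**
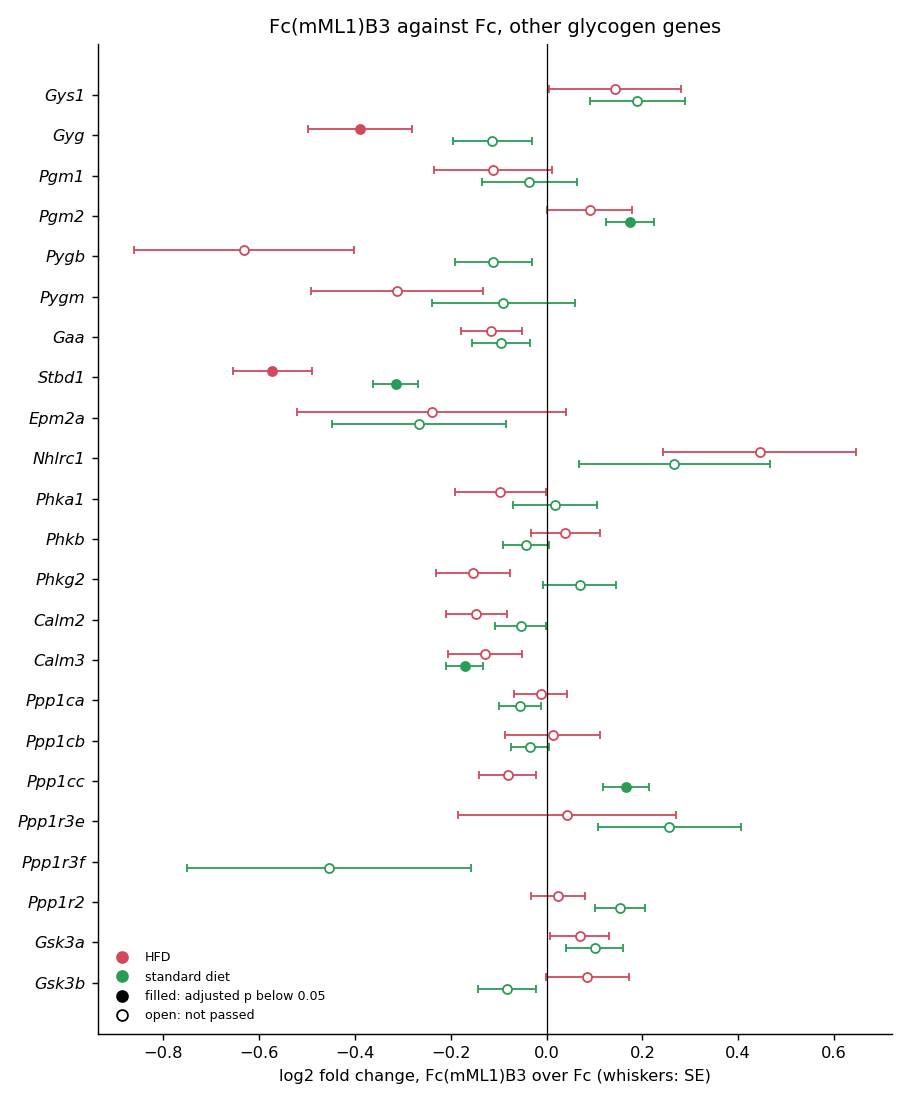
Log2 fold change of Fc(mML1)B3 over Fc (x axis, whiskers SE) for the other tested glycogen genes (y axis) for the HFD (red) and the standard diet (green), filled where the adjusted p was below 0.05. Stbd1 is the gene filled in both diets, at -0.57 and -0.31, and Ppp1r3f was tested under the standard diet alone.

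Between the diets the phosphorylase kinase subunits Phka1, Phkb and Phkg2 were among the list genes called in the same direction for both proteins. The others were Epm2a (1.32 in either), Stbd1, Gaa, Gsk3a and Gsk3b, higher under the standard diet, and Gyg and Pgm1, lower. Of these others, Epm2a alone kept both calls in every alternative tried. Phka2, the liver alpha subunit, was not called in Fc mice (0.13 ± 0.08) and was higher in Fc(mML1)B3 mice (0.55 ± 0.09). Phka1, the muscle alpha subunit, was higher under the standard diet by 0.36 ± 0.09 in Fc and 0.49 ± 0.10 in Fc(mML1)B3 mice, with edgeR adjusted p-values of 0.00122 and 8.83e-05. Phkb, the beta subunit, was higher by 0.43 ± 0.06 and 0.36 ± 0.07 (edgeR adjusted p = 7.82e-07 and 4.51e-05), and Phkg2, the liver catalytic subunit, by 0.27 ± 0.07 and 0.51 ± 0.08 (0.00238 and 1.84e-06). Of the delta subunit genes Calm2 was lower by -0.25 ± 0.06 in Fc mice (edgeR adjusted p = 0.000405) and did not pass at -0.14 ± 0.06 in Fc(mML1)B3 mice (0.0606), nor did Calm3 at -0.13 ± 0.06 and -0.16 ± 0.07 (0.0897 and 0.0706). In Fc(mML1)B3 mice Calm2 and Calm3 were called by DESeq2, with upper-quartile scaling and in 13 and 8 of the 36 fits that left out 1 mouse, and Calm3 in Fc mice with upper-quartile scaling and with the 2 groups alone. Exons of Phkg2 overlap those of Gm166 by 763 bases, and reads in such bases were not counted for either gene. In all, 8 of 23 tested genes of these lists were called higher and 6 lower in Fc mice, and 8 higher and 2 lower in Fc(mML1)B3 mice, beside 23.3% and 24.6%, and 20.7% and 17.9%, of all genes. In Fc(mML1)B3 mice DESeq2 called 5 lower.

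Of 11 genes that bring glucose into the hepatocyte, use it or release it, 3 were called higher under the HFD and 0 lower by edgeR (6 higher and 1 lower at an unadjusted p below 0.05, 3 and 0 by DESeq2), with a list median of 0.25, and under the standard diet 5 were called higher and 1 lower, with a median of 0.09. Over all genes 8.14% and 6.68% were called higher and lower with the HFD and 8.56% and 7.55% with the standard diet. Slc37a4, the glucose 6-phosphate transporter of the endoplasmic reticulum, was higher by 0.38 ± 0.11 with the HFD and 0.64 ± 0.07 with the standard diet (edgeR adjusted p = 0.0243 and 2.03e-06), and Pfkfb1, the hepatic kinase and phosphatase that sets fructose 2,6-bisphosphate, by 0.73 ± 0.11 and 0.43 ± 0.11 (8.01e-05 and 0.0142). Pdk4, which restrains pyruvate oxidation, was higher under the HFD by 1.08 ± 0.29 (edgeR adjusted p = 0.0137). With the standard diet Pklr, liver pyruvate kinase, Fbp1 of gluconeogenesis and Slc2a2, the glucose transporter GLUT2, were higher by 0.58 ± 0.10, 0.33 ± 0.06 and 0.28 ± 0.07, and Gckr was lower by -0.15 ± 0.04 (edgeR adjusted p = 0.000417, 0.00075, 0.00881 and 0.00953). Of the standard diet calls, those of Pklr, Fbp1 and Gckr were lost in 1 fit over all 36 libraries, those of Gckr and Pfkfb1 with the replicate block and with Fc mice 6 to 9 alone. Under the HFD the Slc37a4 call was lost with Fc(mML1)B3 mice 5 to 10 alone and the Pdk4 call with mice 1 to 4 alone. Calls were gained there for Pklr (0.64 ± 0.25) with the replicate block, in 1 fit over all 36 libraries and without Fc mouse 5 or 10, for G6pc (0.74 ± 0.32) without Fc mouse 3, and for Pck1 (-0.23 ± 0.30) with Fc(mML1)B3 mice 5 to 10 alone (-0.97 to 0.47 over the alternatives). Txnip, at -0.29 under the HFD, was called, lower, without Fc(mML1)B3 mouse 5 (-0.40, edgeR adjusted p = 0.0186).

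Of 12 genes of hormone control, 2 were called higher and 0 lower under the HFD by edgeR and by DESeq2 (2 lower at an unadjusted edgeR p below 0.05), beside 8.14% and 6.68% of all genes, and 2 higher and 3 lower after the standard diet, beside 8.56% and 7.55%. Insr, at -0.22 under the HFD, was called with upper-quartile scaling and in 1 fit over all 36 libraries, and Foxo1 with Fc(mML1)B3 mice 5 to 10 alone. The 2 under the HFD were Irs1, higher by 0.47 ± 0.12, and Prkaca, by 0.27 ± 0.08 (edgeR adjusted p = 0.0107 and 0.0304). The Prkaca call was lost without Fc mouse 2, 4, 6 or 7 or Fc(mML1)B3 mouse 6, 9 or 10, with adjusted p-values up to 0.0596 by edgeR, and with the replicate block, and both calls were lost with Fc(mML1)B3 mice 1 to 4 alone. Irs1 and Irs2 dock to the insulin receptor, and Prkaca is the catalytic subunit of the cAMP-dependent kinase that starts glycogen breakdown. Under the standard diet Foxo1, a transcription factor restrained by insulin, and Srebf1, the lipogenic factor induced by insulin, were higher by 0.53 ± 0.07 and 0.43 ± 0.09 (edgeR adjusted p = 3.03e-05 and 0.00251). Irs1, Irs2 and Igfbp1, a secreted binding protein whose gene is repressed by insulin, were lower there by -0.30 ± 0.09, -1.16 ± 0.26 and -1.50 ± 0.33 (edgeR adjusted p = 0.0209, 0.00505 and 0.00361). The standard diet call of Irs1 was lost with the replicate block and in 1 fit over all 36 libraries, that of Irs2 in that fit and with Fc mice 6 to 9 alone, and that of Igfbp1 with those mice alone. The effect on Irs1 differed between the diets by -0.75 ± 0.16 (edgeR adjusted p = 0.00145), that on Igfbp1 by -1.96 ± 0.51 (0.0106), that on Srebf1 by 0.76 ± 0.18 (0.0046) and that on Foxo1 by 0.56 ± 0.15 (0.0107).

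Of 15 clock genes tested under the HFD 5 were called higher and 8 lower with Fc(mML1)B3, and of 16 under the standard diet 7 were higher and 5 lower, where 8.14% and 6.68%, and 8.56% and 7.55%, of all genes were called higher and lower. Arntl, which encodes the clock activator Bmal1, held 0.621 to 2.12 CPM in HFD Fc mice and 6.59 to 28.6 CPM in HFD Fc(mML1)B3 mice, a log2 fold change of 3.98 ± 0.29 (edgeR adjusted p = 1.08e-08). Under the standard diet it held 2.29 to 6.42 and 0.92 to 3.38 CPM, with -1.05 ± 0.27 (edgeR adjusted p = 0.0108). Clock, its partner, was higher by 1.02 ± 0.12 under the HFD and lower by -0.69 ± 0.08 under the standard diet (edgeR adjusted p = 8.9e-06 and 3.85e-06). Arntl and Clock therefore had the same 2 directions as Ppp1r3c. Dbp, an output gene of the clock, was lower under the HFD by -3.31 ± 0.33 (edgeR adjusted p = 5.38e-07) and was not called under the standard diet. Nr1d1, the repressor of Arntl, was lower in both, by -2.97 ± 0.31 and -1.68 ± 0.15 (edgeR adjusted p = 9.67e-07 and 3.6e-07). Within groups Ppp1r3c and Ppp1r3b varied with these genes in some groups and not in others. For Ppp1r3c, r with Arntl was 0.93 in HFD Fc(mML1)B3 and -0.13 in HFD Fc mice (n = 10 each), and 0.49 and 0.16 in the Fc(mML1)B3 and Fc groups of the standard diet (n = 7 and 9), and r with Dbp was -0.95, 0.72, -0.53 and -0.06 in the same order. The wide Ppp1r3b values of standard diet Fc(mML1)B3 mice had an r of -0.98 with Dbp and -0.89 with Nr1d1. With Clock and Arntl it was 0.87 and 0.82. The HFD Fc(mML1)B3 mice had -0.19, -0.34, 0.36 and 0.12 with these 4 genes in that order. HFD Fc mice had -0.79, -0.67, -0.39 and 0.22, and standard diet Fc mice -0.47, 0.11, 0.30 and 0.53. For Phka2, r with Nr1d1 was 0.77 in HFD Fc and 0.75 in HFD Fc(mML1)B3 mice. It was 0.52 and 0.63 in the Fc and Fc(mML1)B3 groups of the standard diet. In the same order, Phka2 had an r of 0.61, 0.63, 0.33 and 0.67 with Dbp. With Arntl it was -0.39, -0.51, -0.28 and -0.79, and with Clock 0.25, -0.76, -0.01 and -0.71. The part of the clock genes in the differences of the glycogen genes was not tested, and neither the hour at which the livers were taken nor whether the mice were fasted is given in the sources used here.

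**Figure D5:**
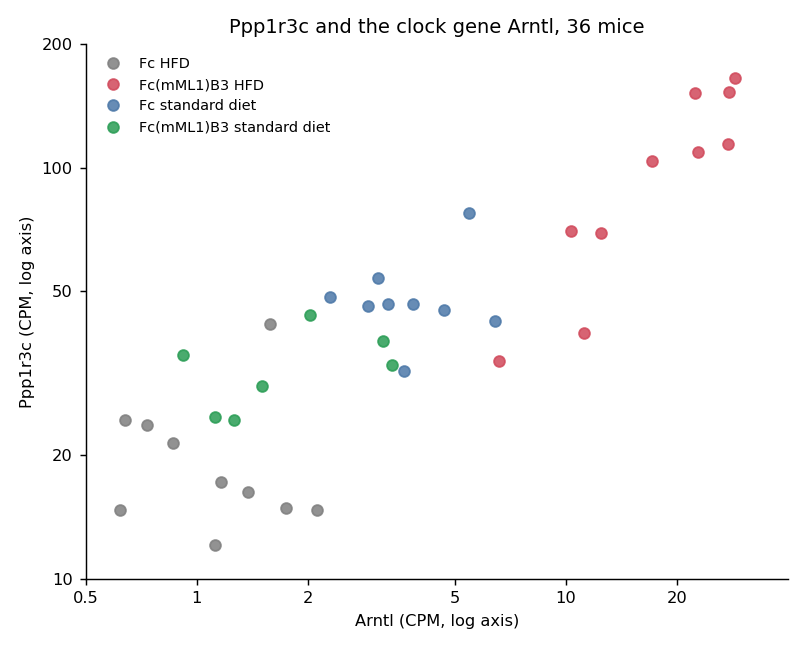
Ppp1r3c (y axis) against Arntl (x axis) in CPM on log axes, 1 point for each of the 36 mice, coloured by group. HFD Fc(mML1)B3 mice hold 6.59 to 28.6 CPM of Arntl and 33.9 to 165 CPM of Ppp1r3c, whereas HFD Fc mice hold at most 2.12 and 41.6 CPM, and within groups r is 0.93 in the former and between -0.13 and 0.49 in the others.

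Within the HFD Fc(mML1)B3 group these genes also differed between the 2 runs of sample numbers in the file names, mice 1 to 4 and mice 5 to 10, whose origin is not given. Ppp1r3c was 61.8 ± 32.3 CPM in mice 1 to 4 (n = 4) and 127 ± 36.1 CPM in mice 5 to 10 (n = 6). Arntl was 11.8 ± 4.31 and 23.2 ± 6.83 CPM, and Ppp1r3g 0.968 ± 0.607 and 0.195 ± 0.185 CPM, in the same order. Ppp1r3b was alike in both, 382 ± 60.8 and 398 ± 100 CPM. Against all 10 Fc mice, the log2 fold change of Ppp1r3c was 1.65 with mice 1 to 4 and 2.67 with mice 5 to 10, and that of Ppp1r3g -1.44 and -3.60. Both genes were called with either set. All HFD Fc mice carried another run of numbers, so that the run and the protein cannot be told apart under the HFD.

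The likeness of single genes to the glycogen genes was taken as Pearson's r of log2 CPM after the mean of each group was subtracted, over 36 libraries, as a description, and r within single groups often differed from it. For Ppp1r3b 4 of the 5 genes with the highest r were Fam35a (0.79), Tsc22d3 (0.78), Slc45a3 (0.77) and 1810011O10Rik (0.75), with 0.20 to 0.93, 0.10 to 0.95, 0.19 to 0.97 and -0.51 to 0.98 within groups. For Ppp1r3c the 5 were Prkd3 (0.75), Zfp322a (0.74), Cldn1 (0.73), 3110057O12Rik (0.72) and Trim2 (0.72), at 0.53 to 0.90 within the HFD groups and -0.36 to 0.58 within those of the standard diet. For Ppp1r3g they were Mknk2 (0.69), Usp2 (0.69), Ciart (0.68), Cyth2 (0.65) and Cdk10 (0.65), of which Ciart is a clock gene, and within HFD Fc mice r was -0.07 for Usp2 and 0.03 for Ciart. For Gys2 they were Uox (0.75), Hsd17b13 (0.74), Pabpc4 (0.73), Hbs1l (0.73) and Cpt1a (0.72), at 0.38 to 0.92 within every group. Among the 9 genes themselves r was 0.05 for Ppp1r3b with Ppp1r3c, which joined -0.52 and 0.19 in the Fc and Fc(mML1)B3 groups of the HFD with 0.68 and 0.62 in those of the standard diet. It was -0.12 for Gys2 with Pygl (-0.26 to 0.44 within groups). The highest r among them was 0.88 for Gbe1 with Pygl (0.97 in HFD Fc mice and 0.30 to 0.53 in the other groups). For Ugp2 it was 0.77 with Gbe1, from 0.60 to 0.91 in 3 groups and -0.34 in Fc(mML1)B3 mice on the standard diet, and 0.73 with Pygl, from 0.28 to 0.93 within groups.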

How the data were processed

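Liver RNA was sequenced as paired ends in 36 mice. The authors trimmed reads with fastp, removed ribosomal reads with Bowtie2 2.4.5, aligned to mm10 with STAR 2.7.10a and counted with featureCounts (Subread 2.0.3). The deposited counts are raw reads per gene, without strand, so that genes overlapping on either strand are uncertain. Totals were 14949035 to 28466853 reads per library, and no 2 libraries of a group agreed within sampling noise (147 pairs). The groups are those of the titles.

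Genes were filtered with filterByExpr, scaled by TMM and tested with edgeR 4.0.16 (R 4.3.3) by the quasi-likelihood test with Benjamini-Hochberg adjustment, in 1 fit per diet for Fc(mML1)B3 against Fc and in 1 fit over 36 libraries for the diets and the interaction. The fit was tested on simulated data. CPM used the TMM library sizes, RPKM the exonic length in the files, and log2 CPM a prior of 2 reads. DESeq2 1.42.0, upper-quartile scaling, other filters, other sets of mice and the study's thresholds (adjusted p below 0.1 and 2-fold under the HFD, 0.05 and 1.5-fold under the standard diet, for which the study's text and a legend differ and the former gives the values of the HFD) were alternatives. The 9 genes and all gene lists were chosen with earlier results of these data known. The genes named are the 9, the tested genes of 4 glycogen lists, called genes of the glucose, hormone and clock lists (all the called ones or examples of them) and, for 4 of the 9, the genes most alike among the first 5. A few genes of the lists are not reported here and are left out of the counts. Whether replicate numbers pair mice was checked by the correlation of their deviations from the group means: it was over 0.1 in 2 of 10 pairs under the HFD and 0 of 7 under the standard diet, so that the numbers were not used as pairs. Each library is taken as 1 mouse, and the p-values set a difference between groups against the spread between these livers. Under the HFD that difference is also one between runs of sample numbers.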

Additional observations from a re-analysis of the deposited data

Results flagged for a closer look

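Of the 36 combinations of gene and group examined for a mouse far from the others, 5 held one, where chance would give about 1 in 20. In Fc mice under the standard diet, mouse 2 was the highest for Ppp1r3b, at 282 CPM, and for Ppp1r3c, at 77.5 CPM. Under the HFD, Fc mouse 1 was the highest for Ppp1r3c, at 41.6 CPM. In Fc(mML1)B3 mice under the HFD, mouse 2 was the highest for Ppp1r3g, at 1.83 CPM, and the lowest for Gbe1, at 151 CPM. Without any one of these mice the calls of the report on these genes under the same diet were kept.

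By the interaction term, the 2 diets differed in the change with Fc(mML1)B3 for Ppp1r3c by -2.90, for Gys2 by 0.77 and for Phka2 by 0.42 on the log2 scale. Diet, schedule and experiment cannot be told apart in these differences.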

How the results depend on the processing

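Over 1584 recomputed log2 fold changes of the 9 genes, none of a called gene changed sign, 46 of genes not called did (reported sizes up to 0.117, recomputed up to 0.175), and 2 moved by more than the spread between mice, those of Ppp1r3c (1.65 with Fc(mML1)B3 mice 1 to 4) and Ppp1r3g (-3.60 with mice 5 to 10). For Fc(mML1)B3 against Fc the count of called genes under the HFD, 1972, became 3133 in 1 fit over all 36 libraries, 705 with Fc(mML1)B3 mice 1 to 4 (fewer samples) and 178 with the study's thresholds, and under the standard diet 2186 became 785, 942 with Fc mice 6 to 9 (fewer samples), 320, and 82 with the thresholds of the HFD, an alternative added after seeing the data; the study's thresholds add a fold, and under the HFD loosen the adjusted p, and for the other settings the cause was not tested. Of the 9 genes, 5 called under the HFD became 3 with mice 1 to 4 and 3 with the study's thresholds, 4 under the standard diet became 2 in the fit over all libraries and 1 with the study's thresholds or those of the HFD, and 5 for the diets in Fc(mML1)B3 mice became 3 with upper-quartile scaling. Leaving out 1 mouse gave 1555 to 2848 called genes under the HFD, 1730 to 2230 under the standard diet, 6233 to 6972 and 4818 to 5578 for the diets in Fc and Fc(mML1)B3 mice and 1059 to 1540 for the interaction. Of the 9 genes it gave 5, 4 to 6, 4, 2 to 5 and 3 to 4: for the diets in Fc(mML1)B3 mice, 2 remained called without standard diet mouse 7, 3 without mouse 1 and 3 without HFD mouse 8, and under the standard diet 6 were called without Fc(mML1)B3 mouse 3.

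With the replicate number as a block, 1294, 1296, 6424, 5110 and 997 genes were called, in the order above, and among the 9 genes the calls of Ppp1r3b under the standard diet and of Gys2 between the diets in Fc(mML1)B3 mice were lost and no other changed. Same-numbered mice correlated with a median of -0.06 for the HFD and -0.08 for the standard diet, and in 0 of 10 and 0 of 7 pairs was the own number the closest. Depth limits Ppp1r3d and Ppp1r3g, which had at most 28 and 98 reads in a liver.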

Other observations

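Immediate early genes, which respond to handling and stress, were measured beside the glycogen genes. Of the 5 listed (Fos, Jun, Egr1, Atf3 and Ier2), 0 were called by edgeR or DESeq2 in either direction with Fc(mML1)B3 in either diet, and 0 with the HFD and 1 with the standard diet, lower, had an unadjusted edgeR p below 0.05, where edgeR called 8.14% of all genes higher and 6.68% lower under the HFD and 8.56% and 7.55% under the standard diet. Egr1 was called, lower, under the standard diet without Fc(mML1)B3 mouse 3 (edgeR adjusted p = 0.0116). Between the diets 0 of the 5 were called higher and 2 lower in Fc mice, and 0 and 3 in Fc(mML1)B3 mice, beside 23.3% and 24.6%, and 20.7% and 17.9%, of all genes. Jun and Atf3 were lower under the standard diet than under the HFD in Fc mice, by -0.56 ± 0.11 and -0.79 ± 0.17 on the log2 scale (edgeR adjusted p = 7.42e-05 and 0.00029), and in Fc(mML1)B3 mice by -0.50 ± 0.12 and -0.72 ± 0.19 (0.000914 and 0.0025), where Fos was lower as well, by -0.75 ± 0.24 (edgeR adjusted p = 0.012).

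Per length, the subunit Ppp1r3e, which was in the pathway list and not among the 9 genes, had a higher mean than Ppp1r3g in each group, at 1.61 ± 0.66 and 1.66 ± 0.607 RPKM under the HFD and 1.87 ± 0.341 and 2.25 ± 0.59 RPKM under the standard diet (Fc first).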
